A study of Mus musculus with 2 samples.

Results

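Transcripts of 8 genes of sterol synthesis were followed across leukocytes sorted from islets of NOD mice: Hmgcs1, Idi1, Fdps, Fdft1, Sqle, Cyp51, Msmo1 and Insig1. They were picked by symbol, and all 8 were found among the 32285 genes of the files. Of these, 7 encode enzymes of the pathway and Insig1 encodes its sterol-sensing brake. None of the 8 is a receptor for lipoprotein uptake, and uptake genes are covered below only through a separate list. The cells came from hand-picked islets of female mice aged 12 weeks and were sorted as live CD45+CD31- cells. These carried the leukocyte marker CD45 and lacked CD31, which marks endothelial cells but is not confined to them. There was 1 single-cell library, made with the 10x 3' v3.1 chemistry, for each of 2 genotypes. One was titled WT NOD and given the genotype NOD, a strain that develops autoimmune diabetes, and the other was labelled NOD.Cxcl16-/-, the same strain with both copies of the chemokine gene Cxcl16 disrupted. How many mice went into each library is not given in the sources used here. With 1 library a genotype there is no replicate, so no difference below was tested and the 95% intervals cover counting error only.

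Cells make cholesterol from acetyl-CoA through mevalonate, and the same route supplies the isoprenoid groups that anchor many signalling proteins to membranes. When sterol in the endoplasmic reticulum runs low, the SCAP protein escorts SREBP2 to the Golgi, where it is cut and released to switch on the genes of the pathway together. When sterol is plentiful, INSIG proteins hold SCAP back, while the LXR receptors switch on genes for sterol export. Lymphocytes that prepare to divide are known to raise sterol synthesis, since each daughter cell needs new membrane.

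The genes lie on 6 chromosomes of the mouse build GRCm38: Idi1 (chr13:8885501-8892451) and Hmgcs1 (chr13:119690379-119708260) share chromosome 13, Cyp51 (chr5:4081145-4104746) and Insig1 (chr5:28071363-28078662) share chromosome 5, and Fdps (chr3:89093588-89101959), Msmo1 (chr8:64718139-64733792), Fdft1 (chr14:63145150-63179578) and Sqle (chr15:59315077-59331192) stand apart. Of these, Cyp51 overlaps the protein-coding gene Akap9 and Fdft1 overlaps Ctsb, both on the opposite strand, and Hmgcs1 overlaps the antisense gene Gm48342. Fdps overlaps the gene model Gm43738 on its own strand, which the files do not list. Whether the counting used strand is not given in the sources used here, so the counts of Cyp51, Fdft1 and Hmgcs1 could hold reads of those neighbours.

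Because SREBP2 switches these genes on together, the promoter letters are shown for the members where a stretch upstream of both the RefSeq and the GENCODE start holds a match. Such a stretch could be read for 4 genes, and that of Idi1 holds none of the motifs and is not printed. RefSeq promoter sequence of the build GRCm38.p6 was matched for 5 of the 8 genes, and the 250 bases before the start were searched on both strands for 4 motifs. The sterol response element core TCACNCCAC was found in 1 of the 5, Hmgcs1, and in 1.05% of all 32851 promoters of the same length. The CCAAT box (CCAAT) stood in 5 of 5 against 33.9% of all promoters, and the GC box (GGGCGG) in 5 of 5 against 32.7%. The E-box CACGTG was in 1 of 5, Insig1, against 6.02% of all promoters. A match describes the letters only. The 3 stretches below read 5′ to 3′ on the gene's strand, with the motif matches of either strand in capitals. That of Hmgcs1 (chr13:119690214-119690283) holds the sterol response element core and a GC box on the other strand. That of Insig1 (chr5:28071286-28071355) holds a GC box and the E-box, and that of Cyp51 (chr5:4104763-4104832, minus strand) a GC box.
Hmgcs1: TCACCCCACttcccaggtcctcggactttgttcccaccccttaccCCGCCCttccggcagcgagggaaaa
Insig1: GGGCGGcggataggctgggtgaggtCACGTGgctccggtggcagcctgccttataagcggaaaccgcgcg
Cyp51: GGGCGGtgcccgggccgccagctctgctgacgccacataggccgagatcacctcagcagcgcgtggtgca

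After low-quality barcodes and likely doublets were left out, 10740 cells with 56767308 UMIs, the counted transcript molecules, remained in the WT NOD library and 9338 cells with 77338301 UMIs in the other. The 8 genes together had 10388 and 15001 of these UMIs. Before this step all barcodes held 93553185 and 98681133 UMIs, with 18549 and 19461 of the 8 genes, so more was left out in the WT NOD library. Cells were assigned to 14 types by gates on raw counts of lineage markers, which took 59.8% and 65.7% of them, and the rest stayed unassigned. The 2 libraries share 45 barcode sequences. Cxcl16 itself was counted at 69.9 CPM in the WT NOD library and 97.8 CPM in the one labelled NOD.Cxcl16-/-, where CPM is UMIs divided by all UMIs of the same cells and scaled to a total of 1000000. This goes against the label, or checks nothing if the counted 3' end lies outside the disrupted part, which is not given in the sources used here. A cell counted as cycling when it held at least 3 UMIs from at least 2 of 10 cell-cycle genes and as non-cycling when it held none. The rest were in between, 2101 and 1895 cells, and at the boundary 231 and 207 cells held exactly 3 of these UMIs and 526 and 410 held 2. Levels are compared for the same gene or the same sum of genes between cells, never between genes.

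Migratory dendritic cells, gated on Fscn1 and Ccr7 with Ccl22 or Cacnb3, had the highest summed level of the 8 genes of any gate in both libraries. It stood at 698 CPM (626 to 776, 42 cells) in WT NOD cells and at 388 CPM (350 to 428, 71 cells) in the library labelled NOD.Cxcl16-/-. The lowest levels were in B cells of the WT NOD library, at 86.7 CPM (80.5 to 93.2, 1835 cells), and in natural killer cells of the other, at 94.3 CPM (65.3 to 132, 79 cells). B cells of the latter stood at 129 CPM in 1996 cells and natural killer cells of the former at 98.4 CPM in 88 cells. Between these ends, plasmacytoid dendritic cells stood at 467 CPM (352 to 608, 18 cells) and 335 CPM (261 to 425, 22 cells). There 5 cells held 83.6% and 62.3% of the UMIs of these genes, and the median cell stood at 155 and 232 CPM, in the opposite order of the sums. Type 2 conventional dendritic cells, cDC2, stood at 324 CPM (256 to 404, 26 cells) and 197 CPM (168 to 229, 67 cells). The monocyte gate, with 14 and 16 cells, held 218 and 358 CPM. CD4 T cells at 177 and 186 CPM, CD8 T cells at 218 and 219 CPM and regulatory T cells at 216 and 246 CPM lay in the middle. Macrophages at 226 and 247 CPM and the type 1 conventional dendritic cells, cDC1, at 224 and 188 CPM were close to the T cells. Gamma-delta T cells stood lower, at 118 and 109 CPM, and plasma cells at 120 and 189 CPM. The ILC2 gate held 112 CPM in 24 cells and 179 CPM in 55 cells.

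Many neighbours in this order did not differ beyond counting error. The intervals of macrophages (190 to 265), cDC1 (189 to 263), CD8 T cells (211 to 225) and regulatory T cells (194 to 240) overlapped in the WT NOD library, and so did those of plasma, gamma-delta T, ILC2 and natural killer cells. That of migratory dendritic cells overlapped no other gate there, and in the other library it overlapped those of the plasmacytoid dendritic cells and monocytes only. Unassigned cells, 4315 and 3204, stood at 186 and 195 CPM, near the 183 and 194 CPM of all kept cells.

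**Figure D1:**
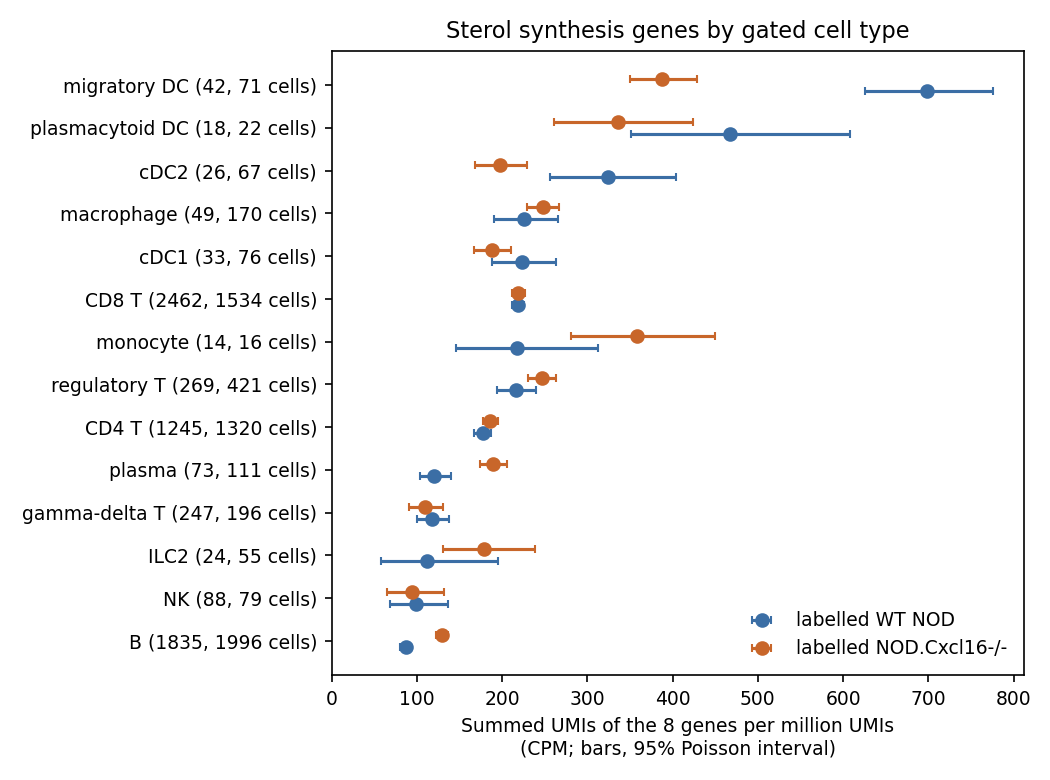
Summed level of the 8 genes in CPM (x axis from 0) for each gated cell type (y axis, with the number of cells in each library), with 95% Poisson intervals. Migratory dendritic cells lead in both libraries, at 698 and 388 CPM, and B cells are at 86.7 and 129 CPM.

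Gene by gene, the migratory dendritic cells were the highest gate for 5 of the 8 genes in the WT NOD library and for 3 in the other. Hmgcs1, which makes HMG-CoA, stood at 98.2 CPM there in the WT NOD library, and in no other gate did it pass 34.0 CPM. In the library labelled NOD.Cxcl16-/- it stood at 42.8 CPM. Cyp51, which removes a methyl group from lanosterol, stood at 131 and 71.7 CPM there, against 12.7 and 25.2 CPM in B cells. Fdft1, the squalene synthase, stood at 51.2 and 21.9 CPM, against 21.1 and 16.9 CPM in CD8 T cells, and in the library labelled NOD.Cxcl16-/- it was as high in regulatory T cells, at 22.2 CPM. Fdps there stood at 123 CPM in migratory and 141 CPM in plasmacytoid dendritic cells. Insig1 stood at 34.8 CPM (20.3 to 55.7) and 27.9 CPM (18.5 to 40.3), close to its level over all kept cells of 27.5 and 28.9 CPM. Idi1, the isomerase that feeds the isoprenoid chain, was not counted in natural killer cells of the library labelled NOD.Cxcl16-/-, where the limit that a count of 0 allows, taken as 3 UMIs, is 8.32 CPM (exact Poisson upper bound 10.2 CPM). In the same library the monocyte gate, with 16 cells, was the highest for Fdft1 (29.4 CPM, 6 UMIs) and Idi1 (53.9 CPM, 11 UMIs). It was also the highest for Msmo1 (58.8 CPM, 12 UMIs) and Insig1 (73.6 CPM, 15 UMIs).

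**Figure D2:**
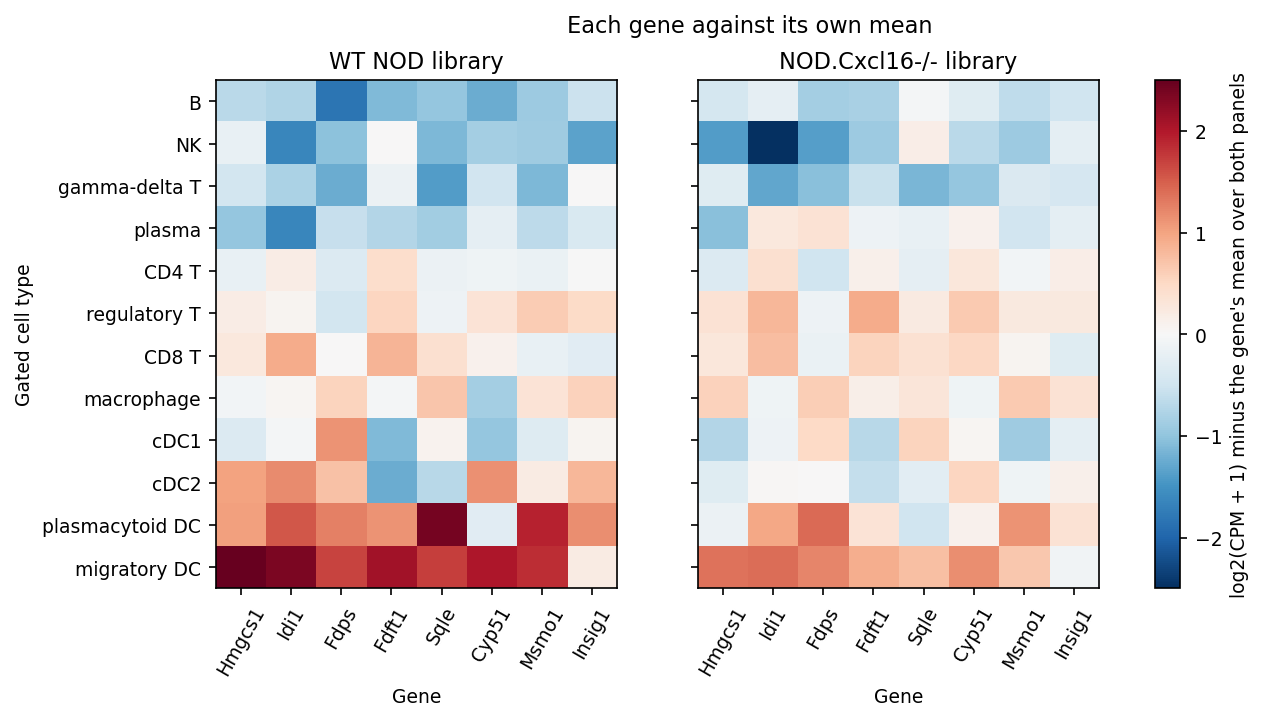
Level of each gene (x axis) in 12 gated cell types (y axis) of each library, as log2(CPM + 1) minus that gene's mean over both panels; red is above and blue below the mean. The row of migratory dendritic cells is red for the 7 enzymes, while Insig1 is near its mean there, at 34.8 and 27.9 CPM.

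Set against cDC1, migratory dendritic cells held 3.11 times the summed level in the WT NOD library (log2 ratio 1.64, 1.36 to 1.93) and 2.06 times in the other (1.04, 0.82 to 1.27). Of the 8 genes, 6 were at least 1.5-fold higher in each library, where 25.5% and 19.1% of all genes that passed the filter were. The filter asks for a mean of 10 CPM and 20 UMIs in the cells compared, and log2 ratios are of CPM with 1 added. It was passed by 7 of the 8 in the WT NOD library, not by Sqle, which is 1 of the 6 there, and by 8 in the other. The median over the 8 genes was 2.28 and 1.32, against -0.09 and -0.08 over all genes. Set against macrophages, the summed log2 ratio was 1.63 (1.35 to 1.92), with 7 of the 8 higher against 23.9% of genes, and 0.65 (0.46 to 0.83), with 5 of the 8 higher against 19.5%. Insig1 did not pass 1.5-fold higher in any of these comparisons, with log2 ratios of 0.15 and 0.15 against cDC1.

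Hmgcs1 had log2 ratios over cDC1 of 2.88 (1.88 to 4.26) and 2.10 (1.31 to 3.20), Fdft1 of 3.20 and 1.59, and Msmo1, a C4-methyl sterol oxidase, of 2.15 and 1.55. Fdps, the farnesyl diphosphate synthase, was at 172 CPM against 116 CPM in cDC1 of the WT NOD library, a log2 ratio of 0.57 that misses 1.5-fold, and at 123 against 74.0 CPM in the other. Sqle, the squalene epoxidase, rested on 13 UMIs in the migratory cells of each library, against 5 and 17 in cDC1. From the other genes of the pathway, the decarboxylase Mvd stood at 30.7 against 10.9 CPM and at 16.9 against 4.62 CPM, and the lipoprotein receptor family gene Lrp8 at 38.9 against 4.69 CPM and at 28.9 against 5.95 CPM. Both are the highest of the list genes that passed the filter, and the lowest were Coq2 (-2.73) and Lipa (-1.09) in the WT NOD library, and Scd2 (-3.38) and Dhdds (-1.05) in the other.

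The level was uneven from cell to cell within the migratory gate. At least 1 UMI of the 8 genes was seen in 37 of 42 cells of the WT NOD library and in 55 of 71 of the other. The median cell stood at 495 and 204 CPM, the lower quartile at 87.7 and 63.9 CPM and the upper at 1094 and 531 CPM. The 5 cells with the most UMIs of these genes held 40.8% and 32.6% of all of them. With so few cells, the summed level leans on a small number of them in both libraries. In cells of 5000 to 15000 UMIs, the log2 ratio over cDC1 of the library labelled NOD.Cxcl16-/- was 0.53 instead of 1.04, with 16 cDC1 left.

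Cycling CD8 T cells held more of the sterol genes than non-cycling ones in both libraries. In the WT NOD library the sum was 323 CPM (310 to 337) in 517 cycling cells and 136 CPM (127 to 145) in 1404 non-cycling cells, a log2 ratio of 1.24 (1.14 to 1.36). In the library labelled NOD.Cxcl16-/- it was 335 CPM (319 to 351) in 256 cells and 130 CPM (121 to 140) in 942 cells, a log2 ratio of 1.35 (1.23 to 1.49). The same 6 of the 8 genes were at least 1.5-fold higher in both, where 18.7% and 18.9% of all genes were higher in each library and 15.8% in both. All 8 passed the filter. The median over the 8 was 1.20 and 1.23, and over all genes -0.02 and -0.04. Cells with some but too few cell-cycle UMIs lay in between, at 159 CPM (145 to 175) and 167 CPM (151 to 184).

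In order along the pathway, Hmgcs1 stood at 26.2 CPM in cycling and 14.5 CPM in non-cycling CD8 T cells of the WT NOD library (log2 ratio 0.81, 0.48 to 1.23), and at 27.5 and 12.7 CPM in the other (1.06, 0.69 to 1.55). Idi1 stood at 67.4 against 15.6 CPM (2.04, 1.80 to 2.44) and at 63.2 against 11.6 CPM (2.35, 2.05 to 2.86). Fdps stood at 89.6 against 23.3 CPM (1.90, 1.68 to 2.21) and at 81.4 against 21.3 CPM (1.88, 1.63 to 2.24). Idi1 and Fdps, which build the isoprenoid units, had the highest ratios of the 8 in both libraries. Fdft1, at the first step that is committed to sterol, stood at 28.3 against 13.4 CPM (1.02) and at 24.6 against 11.4 CPM (1.05). Sqle stood at 15.8 against 5.25 CPM (1.43) and at 16.6 against 4.30 CPM (1.73), and Cyp51 at 52.3 against 19.6 CPM (1.37) and at 69.7 against 25.8 CPM (1.40).

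The remaining pair stayed under 1.5-fold. Msmo1 stood at 22.2 against 17.0 CPM (0.37, 0.02 to 0.76) and had 138 against 107 UMIs in the other (0.38, 0.02 to 0.78). Insig1 stood at 21.5 against 27.2 CPM in the WT NOD library (-0.33, -0.67 to -0.01) and at 25.2 against 23.2 CPM in the other (0.12, -0.24 to 0.49). So 6 of the 7 enzymes passed 1.5-fold in cycling cells and the brake, itself a target of SREBP2, did not.

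**Figure D3:**
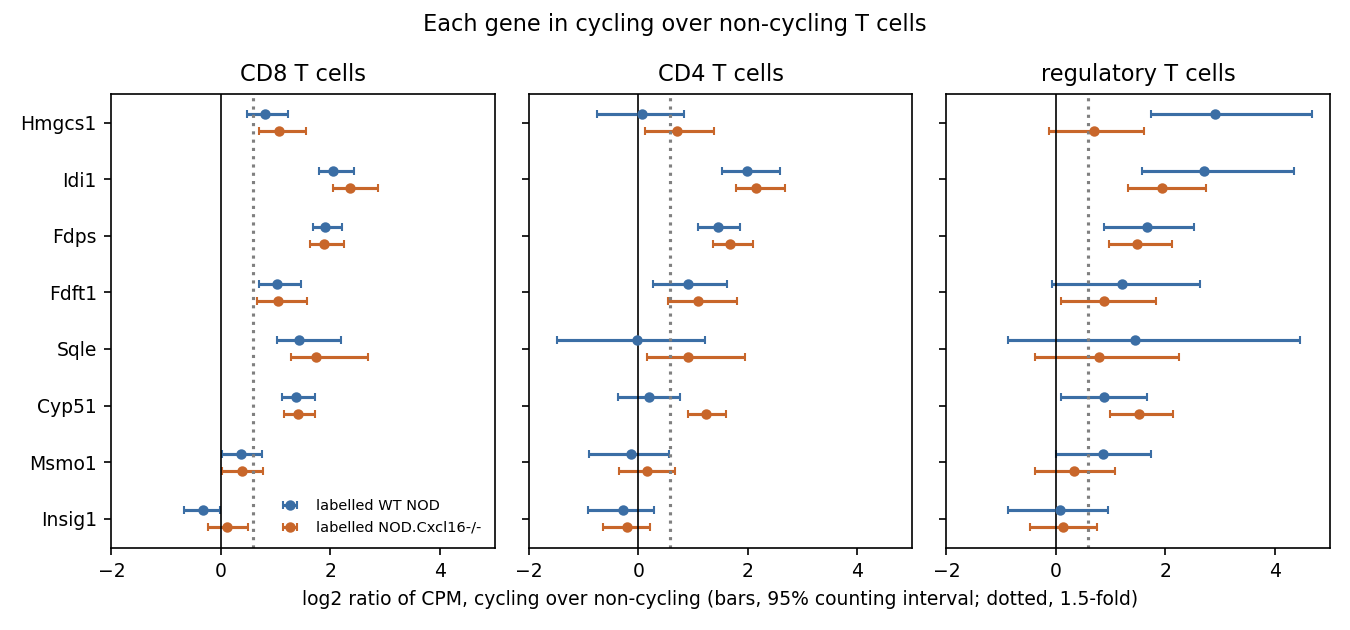
Log2 ratio of CPM in cycling over non-cycling cells (x axis) for each of the 8 genes (y axis) in CD8, CD4 and regulatory T cells, one colour for each library, with 95% counting intervals and a dotted line at 1.5-fold. In CD8 T cells, Idi1 and Fdps are the highest in both libraries, with Idi1 at 2.04 and 2.35, and Insig1 is at -0.33 and 0.12.

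Cycling CD8 T cells were deeper than non-cycling ones, with medians of 10417 against 4345 UMIs in the WT NOD library and 16968 against 5046 in the other. Within cells of 5000 to 15000 UMIs the summed log2 ratio was 1.19 (181 against 525 cells) and 1.29 (87 against 464 cells), close to the values over all cells. Thinned to 2000 UMIs each, 44.9% (40.2 to 49.7, exact Clopper-Pearson interval) of 441 cycling cells and 23.2% (20.7 to 25.7) of 1131 non-cycling cells of the WT NOD library held a UMI of any of the 8 genes. In the other library the shares were 41.2% of 250 and 21.3% of 890 cells. Shallower cells were left out, 76 and 273 in the WT NOD library and 6 and 52 in the other, and without thinning the shares were 74.1% and 40.1%, and 90.2% and 46.0%. No cell type is known to lack these genes, so no share from free RNA alone can be given; non-cycling B cells, thinned alike, had 15.2% and 15.6% (28.3% and 30.7% without thinning), at medians of 4237 and 4401 UMIs. The summed transcripts of 5 islet endocrine genes stood at 22.7 CPM in cycling and 67.8 CPM in non-cycling CD8 T cells, and at 98.2 and 164 CPM in the other library, and their part in the difference was not tested.

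The other genes of the pathway, 47 on 7 fixed lists, followed in part. Of these, 10 were 1.5-fold higher in cycling CD8 T cells of both libraries and 3 were lower, where 15.8% of all genes that passed the filter were higher and 12.6% lower. Not all of the 10 passed the filter in both libraries. Of the mevalonate arm, 2 of the 4 other genes were higher. The phosphomevalonate kinase Pmvk stood at 46.5 against 22.2 CPM (1.03) and at 46.2 against 18.1 CPM (1.30), and the mevalonate kinase Mvk at 13.1 against 8.19 CPM (0.62) and at 13.4 against 7.66 CPM (0.73). Of the steps from squalene to cholesterol, 3 of the 8 other genes were higher. Among them was the sterol reductase gene Tm7sf2 (0.76 and 0.98), at under 10 CPM. Pdss1, which makes the tail of coenzyme Q from the same isoprenoid units, was 1 of the 5 genes of the isoprenoid branch to be higher (0.64 and 0.79).

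Uptake and transport genes split. Of the 8, Lrp8 (0.88 and 1.41) and the sterol carrier gene Stard4 (0.73 and 0.74) were higher, but Lrp8 passed the filter in neither library. Npc2, which hands cholesterol out of the lysosome, was lower, at 208 against 377 CPM (-0.86) and at 217 against 362 CPM (-0.74). Of the 7 genes of export and LXR, none was higher and 2 were lower. The sterol exporter Abcg1 stood at 11.6 against 36.3 CPM (-1.56) and at 13.8 against 40.7 CPM (-1.50), and Mylip, an LXR target whose protein marks lipoprotein receptors for breakdown, at 6.86 against 26.9 CPM (-1.83) and at 10.3 against 29.5 CPM (-1.43). Of 9 genes of fatty acid synthesis, the synthase Fasn (0.83 and 1.09) and the desaturase Scd2 (1.10 and 0.75) were higher. None of the 6 other genes of SREBP control passed 1.5-fold in both libraries in either direction.

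In CD4 T cells the difference was smaller and less steady. The sum stood at 264 CPM in 65 cycling and 156 CPM in 929 non-cycling cells of the WT NOD library, a log2 ratio of 0.76 (0.56 to 0.96). In the other it stood at 299 CPM in 109 and 141 CPM in 942 cells, a log2 ratio of 1.08 (0.93 to 1.24). Of the 8 genes, 3 and 6 were 1.5-fold higher, against 18.0% and 17.1% of all genes, and the 3 higher in both libraries, against 12.8% of genes, were Idi1 (1.98 and 2.14), Fdps (1.45 and 1.68) and Fdft1 (0.91 and 1.09). In each library 7 passed the filter, not Sqle, which is 1 of the 6 in the library labelled NOD.Cxcl16-/-. The median over the 8 was 0.14 and 1.00, against -0.17 and -0.09 over all genes. The 5 cells with the most UMIs held 39.6% of the members' UMIs among the 65 cycling cells of the WT NOD library. Endocrine transcripts moved with the sum in that library, at 713 CPM in cycling and 174 CPM in non-cycling CD4 T cells, and against it in the other, at 177 and 293 CPM. Their part in the result was not tested. Within cells of 5000 to 15000 UMIs the summed log2 ratio was 0.33 (15 cycling cells) and 0.58 (33 cycling cells).

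Regulatory T cells, gated on Foxp3, held 401 CPM in 22 cycling and 163 CPM in 194 non-cycling cells of the WT NOD library (1.29, 0.96 to 1.63). They held 355 CPM in 56 and 165 CPM in 262 cells of the other (1.10, 0.87 to 1.35). Among the members, 7 and 6 of 8 were higher, against 15.6% and 16.7% of all genes, and 7 passed the filter in each, while Sqle did not and is among those called in both. Endocrine transcripts stood at 39.3 against 685 CPM and at 86.7 against 263 CPM. Within 5000 to 15000 UMIs the ratio of the library labelled NOD.Cxcl16-/- was 0.64, with 17 cycling cells.

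In B cells the ratio differed between the libraries, though that of the WT NOD library was unsteady. In the library labelled NOD.Cxcl16-/-, 66 cycling B cells held 353 CPM (320 to 388) and 1669 non-cycling ones 94.3 CPM (87.6 to 101.3), a log2 ratio of 1.89 (1.73 to 2.08), with 7 of the 8 genes higher against 23.9% of genes and all 8 past the filter. In the WT NOD library, 24 cycling B cells held 103 CPM (60.8 to 162, 18 UMIs) and 1536 non-cycling ones 88.1 CPM, a log2 ratio of 0.22 (-0.55 to 0.89). There 2 of the 8, Fdps and Msmo1, were higher against 26.2% of genes and 4 were lower against 19.9%. Only 4 passed the filter, and 3 of the 4 lower ones did not, so these calls rest on very few UMIs. Over the alternatives run, the summed log2 ratio lay between -0.002 and 1.22 in the WT NOD library and between 1.64 and 1.92 in the other. The median depth of these cycling B cells was 5226 UMIs in WT NOD cells and 17886 in the other, and endocrine transcripts stood at 217 CPM in cycling and 43.8 CPM in non-cycling B cells of the former and at 59.6 and 143 CPM in the latter. The part of depth and of these transcripts in the difference was not tested. Macrophages that cycled held 254 CPM (221 to 291, 35 cells) and those that did not 203 CPM (174 to 236, 72 cells) in the library labelled NOD.Cxcl16-/-, with a log2 ratio of 0.32 (0.03 to 0.62) where the median over all genes was 0.24. Of the members, 2 of 8 were higher, Idi1 and Cyp51, against 24.8% of genes, a share near the background, and 6 passed the filter. Endocrine transcripts stood at 1053 CPM in the cycling and 11299 CPM in the non-cycling macrophages, and their part in the ratio was not tested.

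**Figure D4:**
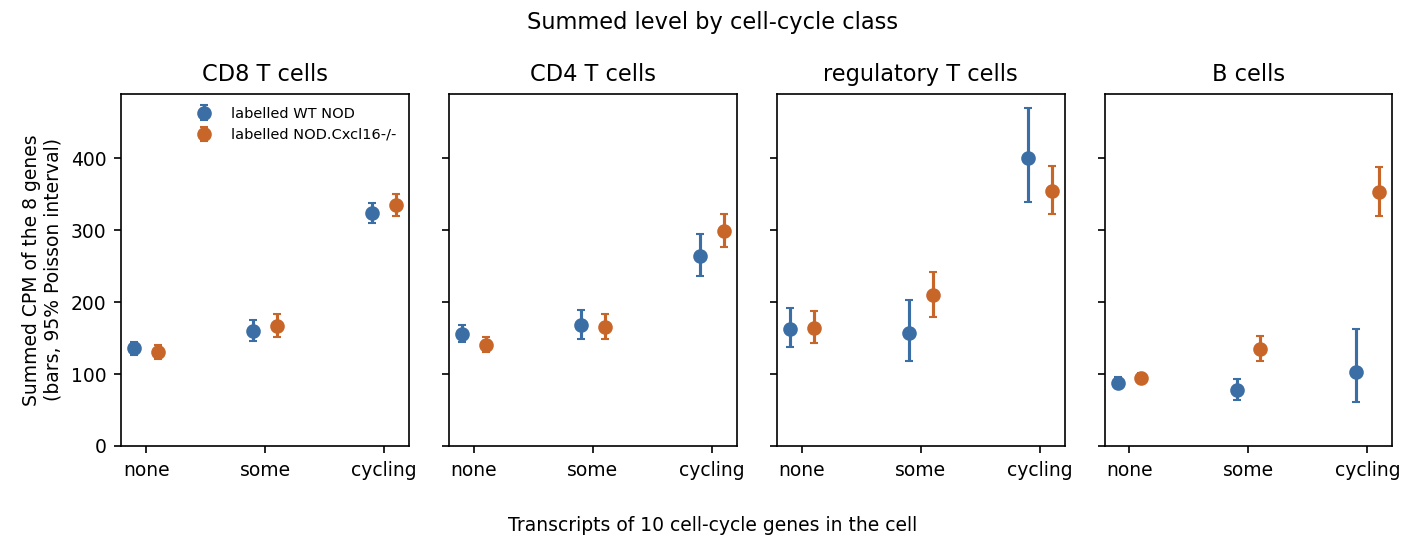
Summed CPM of the 8 genes (y axis from 0) in cells with none, some or, as cycling cells, at least 3 UMIs of the 10 cell-cycle genes (x axis), for 4 gated cell types and each library, with 95% Poisson intervals. CD8 T cells go from 136 and 130 CPM to 323 and 335 CPM. Cycling B cells stand at 103 CPM in the WT NOD library, on 18 UMIs, and at 353 CPM in the other.

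Antigen experience alone gave no common difference. Among non-cycling CD8 T cells, those with at least 2 of 6 experience markers counted as antigen-experienced. Naive-like ones had at least 2 of 4 naive markers and no experience marker. In the WT NOD library the former held 160 CPM (145 to 176, 458 cells) and the latter 114 CPM (97.6 to 132, 299 cells), a log2 ratio of 0.48 (0.23 to 0.75). In the library labelled NOD.Cxcl16-/- they held 132 CPM (118 to 147, 386 cells) and 145 CPM (123 to 171, 193 cells), a log2 ratio of -0.14 (-0.43 to 0.15). Of the 8 genes, 4 were higher and 1 lower in the WT NOD library, against 19.8% and 9.09% of all genes, and 1 was higher in the other, against 21.7%. In each library 7 passed the filter, not Sqle, which is 1 of the 4. Fdps (30.9 against 13.9 CPM, 1.10), Cyp51 (25.8 against 11.3 CPM, 1.13) and Fdft1 (19.0 against 9.28 CPM, 0.96) were higher in the WT NOD library. Sqle had 17 UMIs against 1 there, and Hmgcs1 was lower at 13.1 against 21.2 CPM (-0.66, -1.44 to 0.05). In the other library the ratios were -0.31 for Fdps, -0.22 for Cyp51 and 0.84 for Fdft1 (-0.26 to 2.35). The sign in the library labelled NOD.Cxcl16-/- turned to 0.23 when each cell was thinned to 2000 UMIs.

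Within antigen-experienced CD8 T cells, cycling still went with more of these transcripts. The sum stood at 336 CPM in 332 cycling and 160 CPM in 458 non-cycling cells of the WT NOD library (1.07, 0.92 to 1.23), and at 347 CPM in 211 and 132 CPM in 386 cells of the other (1.39, 1.23 to 1.57). Idi1 led here too, at 71.0 against 15.5 CPM (2.13) and at 66.7 against 12.8 CPM (2.29). The cycling cells were deeper, with medians of 14334.5 against 4809 UMIs in the WT NOD library and 17815 against 5766 in the other. Within cells of 5000 to 15000 UMIs the summed log2 ratio was 0.89 (137 against 208 cells) and 1.29 (74 against 224 cells).

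Between the libraries, non-cycling CD8 T, CD4 T and B cells and cycling CD8 T cells had close levels of these genes. Cycling B cells did not, at 353 against 103 CPM as given above, the latter on 18 UMIs. Neither did plasma cells as a whole, at 189 against 120 CPM. Non-cycling plasma cells alone were close, at 117 against 128 CPM, a log2 ratio of -0.12 (-0.53 to 0.28). The plasma gate held 24 cycling cells of 111 in the library labelled NOD.Cxcl16-/- and 3 of 73 in the WT NOD library. The part of this mix in the difference was not tested. Each ratio below has WT NOD as its denominator, and genotype, mice and library cannot be told apart. In non-cycling CD8 T cells the sum was 130 and 136 CPM, a log2 ratio of -0.06 (-0.21 to 0.08), and none of the 8 genes passed 1.5-fold, where 1.48% of genes were higher and 0.831% lower. In non-cycling CD4 T cells it was 141 and 156 CPM (-0.15, -0.31 to 0.01), again with none of the 8 past 1.5-fold, against 1.61% and 1.29%. With 1 more lineage UMI asked of each gate the CD4 ratio turned to 0.18. In non-cycling B cells it was 94.3 and 88.1 CPM (0.10, -0.06 to 0.25), with none of the 8 past 1.5-fold, against 1.16% and 0.755%. Among the members, 7, 7 and 5 of 8 passed the filter in these comparisons. Cycling CD8 T cells stood at 335 and 323 CPM (0.05, -0.04 to 0.14). In macrophages it was 247 CPM in 170 cells and 226 CPM in 49 cells (0.13, -0.13 to 0.40), with 2 of the 8 higher and none lower, against 13.9% and 9.06% of genes, and all 8 past the filter. Those were Hmgcs1 (24.4 against 15.4 CPM) and Cyp51 (28.8 against 17.0 CPM), each on 10 or 11 UMIs in the WT NOD library. The macrophage ratio turned to -0.45 within 5000 to 15000 UMIs, on 80 and 27 cells. Macrophages also carried endocrine transcripts at 8298 and 11284 CPM, whose part in this was not tested.

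Among the dendritic cells the sum was lower in the library labelled NOD.Cxcl16-/- by a log2 ratio of -0.71 in cDC2 (-1.11 to -0.31) and of -0.25 in cDC1 (-0.55 to 0.05). In cDC2 of the WT NOD library, 5 of 26 cells held 69.2% of these UMIs, and the median cell stood at 105 CPM against 123 CPM in WT NOD. Endocrine transcripts stood at 402 against 1134 CPM in cDC2, and their part in the ratio was not tested. In migratory dendritic cells the sum was 388 CPM in the library labelled NOD.Cxcl16-/- and 698 CPM in the WT NOD library, a log2 ratio of -0.85 (-1.06 to -0.63), and it lay between -1.07 and -0.76 over the alternatives run. Of the 8 genes, all passed the filter and 6 were 1.5-fold lower, against 10.2% of all genes, while the median was -0.98 over the 8 and 0.08 over all genes. Hmgcs1 stood at 42.8 against 98.2 CPM (-1.18, -1.83 to -0.57), Fdft1 at 21.9 against 51.2 CPM (-1.19, -2.12 to -0.34) and Msmo1 at 34.9 against 79.8 CPM (-1.17, -1.90 to -0.50). Idi1 stood at 52.8 against 104 CPM (-0.97), Cyp51 at 71.7 against 131 CPM (-0.86) and Sqle at 13.0 against 26.6 CPM (-0.98, -2.27 to 0.19). Fdps (-0.48) and Insig1 (-0.31, -1.24 to 0.64) stayed under 1.5-fold.

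Other measures moved with this difference, and their part in it was not tested. The gate held 10 cycling cells of 71 in the library labelled NOD.Cxcl16-/- and 0 of 42 in the WT NOD library. Non-cycling migratory cells alone stood at 484 CPM (411 to 565, 31 cells) and 970 CPM (843 to 1110, 21 cells). Endocrine transcripts stood at 1820 and 182 CPM over the whole gate, and at 394 and 92.4 CPM in its non-cycling cells. All 5 endocrine markers were counted in the gate of both libraries, and Iapp was at 0 in the non-cycling cells of the WT NOD library. Median depth was 12455 and 12065 UMIs. Of the other genes of the pathway, the 2 lowest were Nsdhl (11.0 against 20.5 CPM, -0.84) and Mvd (16.9 against 30.7 CPM, -0.82), both of the synthesis lists, and the 2 highest were Mylip (33.9 against 22.5 CPM, 0.57) and Acaca (14.9 against 10.2 CPM, 0.51).

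**Figure D5:**
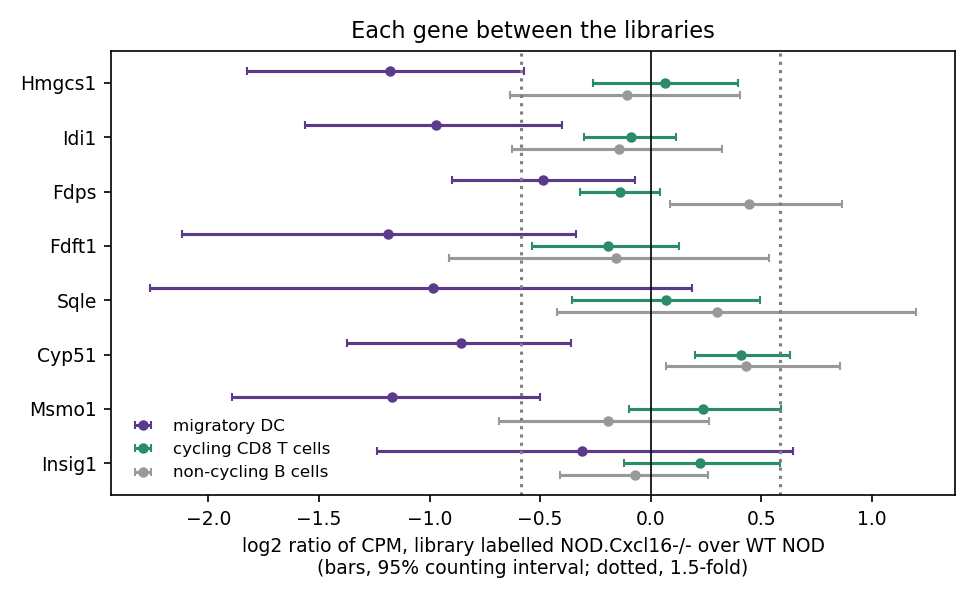
Log2 ratio of CPM, library labelled NOD.Cxcl16-/- over WT NOD (x axis), for each of the 8 genes (y axis) in 3 cell groups, with 95% counting intervals and dotted lines at 1.5-fold. In migratory dendritic cells all 8 points are below 0, with Fdft1 at -1.19, while in cycling CD8 T cells they lie between -0.19 and 0.41.

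Across the 22 points formed by gates of at least 30 cells in each library, the 7 enzymes varied more closely with the other members than Insig1 did. This is a description over points that share libraries and depth. The correlation of each gene's log2(CPM + 1) with the mean of the other 7 was 0.74 to 0.82 for the 7 enzymes and 0.49 for Insig1. Of the other genes with a mean of at least 10 CPM, those most like the mean of the 8 were Tmem70 (r = 0.87), the fatty acid binding protein gene Fabp5 (0.86), Csrp1 (0.84), Uap1, Naxe and Ciao2b (0.83 each), Fas (0.82), Calm3 and Prnp (0.81 each) and Eno3 (0.80).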

How the data were processed

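The values the authors deposited are counts of UMIs for every gene in every barcode, not normalized and made with Cell Ranger 7.0.1 on the build mm10, per the submitters' processing notes. Whether intronic reads were counted is not given in the sources used here. Depth was 93553185 UMIs over 13859 barcodes (WT NOD) and 98681133 over 10554. Barcodes with under 500 genes (1582 and 311) or over 10% mitochondrial UMIs (53 and 84) were left out, and so were the highest of a Scrublet-type doublet score, at 0.8% for each 1000 barcodes (1537 and 891). Cells were gated on marker UMIs, with limits on other lineages of 3 per 10000 UMIs (10 for Jchain). Counts were summed per gate and library and scaled to CPM. Intervals are exact Poisson for levels and exact binomial (Clopper-Pearson) for shares; those of ratios condition on the 2 counts. Ratios use log2(CPM + 1). Thinning drew 2000 UMIs per cell.

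The members, lists and comparisons were chosen with earlier results of these data known, and gate limits after gate sizes and member levels had been seen. Named are all 8 genes, of the list genes up to 12 by mean log2 ratio past 1.5-fold in both libraries in cycling CD8 T cells and the 2 highest and 2 lowest of a comparison, and the 10 genes most like the 8. Of the list genes so chosen, 1 is not reported here. On simulated counts for cycling against non-cycling CD8 T cells of the WT NOD library, 100% of 100 genes changed 2-fold and 0.268% of 7084 unchanged genes passed 1.5-fold, of 7284 run. These counts were Poisson, without clumping of UMIs in single cells. The changed genes were drawn from those at 2 times the filter's CPM limit or more, so the recovery does not cover lower members such as Sqle. Gene positions are from GENCODE M21 and promoters from RefSeq. Python 3.11.15, numpy 2.4.6, scipy 1.17.1 and pandas 2.3.3 were used.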

Additional observations from a re-analysis of the deposited data

Results flagged for a closer look

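Cyp51 and Fdps had differences of opposite direction in different cell groups, each past 1.5-fold with a counting interval that leaves out 0. Whether the groups differ was not tested, since each has 1 library. Cyp51 was higher in the library labelled NOD.Cxcl16-/- in cycling CD4 T cells, at 64.7 against 30.4 CPM (log2 ratio 1.07), and in cDC1, at 32.4 against 15.6 CPM (1.00, on 49 and 10 UMIs). It was lower there in migratory dendritic cells, at 71.7 against 131 CPM (-0.86). Fdps in the WT NOD library was higher in antigen-experienced than in naive-like non-cycling CD8 T cells, at 30.9 against 13.9 CPM (1.10). In CD4 T cells of the same library it was lower, at 22.3 against 43.3 CPM (-0.93).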

How the results depend on the processing

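Beside 10 other settings, 2 were chosen after seeing the data, namely fixed limits on other lineages and cells of 5000 to 15000 UMIs only. Of 428 main values under alternatives, 361 stayed within their counting interval or 1.5 times, and 307 of 328 summed log2 ratios kept their direction. The cause of the changes below was not tested. No paired analysis was possible because each genotype has 1 library, and leaving out a replicate would leave a group empty.

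Cycling over non-cycling, log2 ratio of the sum: the mean of each cell's CPM gave 0.97 and 1.22 for CD8 T cells of the WT NOD library and the other, and 0.54 for CD4 T cells of the first. One more lineage UMI gave 1.15 and 0.92 for CD4 T cells, and the depth window 0.33 and 0.58. In that window Hmgcs1 (-0.53) and Fdft1 (-1.56) reversed in CD4 T cells of the library labelled NOD.Cxcl16-/-, where 3 members were higher and 1 lower. In CD4 T cells of the WT NOD library 4 members were lower with thinning, and 1 with stricter cycling and in the window.

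Experienced over naive-like CD8 T cells: in the WT NOD library the window gave 0.86, members lower were 2 with the mean of each cell's CPM and 0 with 1 more lineage UMI, stricter cycling or the window. In the other, thinning gave 0.23 with 3 members higher, and 1 member was lower without ribosomal and mitochondrial genes and 3 in the window.

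Between libraries: in CD4 T cells 1 more lineage UMI gave 0.18 with 1 member lower, thinning 1 higher and 2 lower, kept doublets 2 lower and the window 1 lower. In B cells 2 members were higher with stricter cycling and 1 in the window. In macrophages the window gave -0.45 with 0 higher and 4 lower, thinning 4 higher and 3 lower, the mean of each cell's CPM 1 higher and 1 lower, kept doublets 1 higher and fixed limits 1 lower.

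Genes past 1.5-fold, in the order cycling CD8 and CD4 T cells, experienced CD8 T cells (each WT NOD first), then CD8, CD4, B and macrophages between libraries: without a filter 5148, 5315, 7483, 5984, 6094, 6249, 1569, 1856, 1196 and 6194, and at 50 CPM 1071, 1128, 1418, 1175, 686, 692, 41, 37, 31 and 362. Between libraries, thinning gave 502 (CD8), 545 (CD4), 289 (B) and 3486 (macrophages), the mean of each cell's CPM 361 (CD8), leaving out ribosomal and mitochondrial genes 268 (CD8), 1 more lineage UMI 492 (CD4), and the window 569 (CD4) and 288 (B).

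Scaling by the median gene ratio moved all genes by -0.11 and -0.15 (log2) in cycling CD8 and CD4 T cells of the WT NOD library, and by 0.12 and 0.14 in experienced CD8 T cells of each. The share of calls that were higher, as deposited, without ribosomal and mitochondrial genes, and by the median ratio, was 52.4%, 39.1% and 63.5% for cycling CD8 T cells and 38.1%, 39.8% and 50.5% for cycling CD4 T cells (WT NOD). It was 68.6%, 41.9% and 54.7%, and 72.3%, 48.2% and 56.0%, for experienced CD8 T cells, and 64.1%, 51.5% and 45.6% (CD8) and 60.6%, 42.4% and 55.5% (B) between libraries.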
